A study of Danio rerio with 31 samples.

Results

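The comparison described here is that of telencephalon against midbrain within Nadia zebrafish, a wild population by its labels and 1 of 4 populations studied. It rests on 8 of 31 arrays, chosen by their labels alone: 4 of Nadia telencephalon and 4 of Nadia midbrain, from sexually mature fish aged 1 year that are labelled as untreated controls. In each region 2 arrays came from males (T98 and T106, M98 and M106) and 2 from females (T7 and T130, M7 and M130), named by region and label number. That number is called a fish number below, although the labels do not say that it marks a fish. The other populations were the wild Pargana North with 8 arrays and the domesticated Scientific Hatchery with 7 and Transgenic Mosaic 1 with 8, of the same age, treatment label and regions. Each array held total RNA from the brain region of an individual fish, labelled with Cy3 and hybridised to a NimbleGen expression array, and the deposited table gives a log2 value for each of 15648 genes. Values are levels on that log2 scale, and differences are telencephalon minus midbrain, so that 1 unit is a 2-fold change. These labels do not say whether the fish were caught in the wild or bred in a laboratory, nor how the regions were cut.

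The telencephalon is the front of the forebrain. In fish it holds a pallium of mostly glutamatergic neurons, a subpallium that makes most of its GABAergic neurons, and the adjoining preoptic area and olfactory bulb lie close to where it is cut. The midbrain holds the optic tectum, which receives the axons of the eye, and a tegmentum with motor, GABAergic and monoamine-containing cell groups, with the cerebellum behind it and the hypothalamus below. Each territory keeps into adult life part of the transcription factor code that patterned it in the embryo, which makes those genes a check of what was dissected.

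Most marker rows went with the labels. Markers that also stand in the gene lists below were chosen with earlier results of these data known, so the check is not independent of those results. Over all genes 8.42% were higher in telencephalon and 10.7% lower. Of 12 table rows for telencephalic markers 10 were higher in telencephalon, 1 (EMX2) was lower and 1 (a second row named LHX6) was not called, and all 10 rows for midbrain markers were lower in telencephalon. The 4 telencephalon and 4 midbrain arrays did not overlap for any of the called rows, nor did they for 2482 of all 2992 called genes.

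Over all genes, 2992 differed between the regions in Nadia fish at a Benjamini-Hochberg adjusted p under 0.05 (limma), which is 19.1% of those tested. Of these, 1317 genes (8.42%) were higher in telencephalon and 1675 (10.7%) were lower. The balance between the directions depends on scaling: 44% of the calls were higher in telencephalon as deposited and 54.7% once all arrays were shifted to the same median, which moves every Nadia difference up by 0.0741. A difference of at least 2-fold was found for 408 genes higher and 820 lower, and of at least 8-fold for 24 higher and 88 lower. The 4 telencephalon arrays lay wholly above the midbrain arrays for 1492 genes (9.53% of all genes) and wholly below for 1816 (11.6%), and 2482 of the called genes were among these. Same-numbered arrays gave the same sign in all 4 pairs for 2873 of the called genes. The 2482 called genes without overlap have the same sign however the arrays are paired. The calls also rest on the same differences, so the count of 2873 is no separate check of them. How T98, T106, M98 and M106 pair is less sure than for the remaining pairs. In RNA from pieces of tissue, fewer cells of a type and less RNA in each cell cannot be told apart.

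Forebrain transcription factors were prominent among the genes with the largest excess in telencephalon. The pallial homeobox gene emx3 read 11.93, 11.41, 11.36 and 11.52 in the telencephalon arrays T98, T106, T7 and T130 and 5.62, 5.67, 5.88 and 5.52 in M98, M106, M7 and M130, the order used throughout. Each region lay inside a narrow band, and the difference was 5.88 ± 0.24 (SE), a 58.9-fold excess (adjusted p = 8.22e-15, limma). EMX1, its paralog, gave 11.99, 11.94, 11.61 and 11.80 against 7.17, 7.42, 6.50 and 6.20. TBR1 and EOMES are T-box factors of glutamatergic neurons, and their differences were 5.37 ± 0.49 (SE) and 4.65 ± 0.20 (SE). EOMES was at 13.27, 13.53, 13.72 and 13.67 in telencephalon and at 9.09, 9.03, 8.75 and 8.73 in midbrain. LHX8, a LIM-homeobox factor of the subpallium, was 13.4-fold higher and BHLHE23, a basic helix-loop-helix factor, 15.4-fold higher.

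Signalling genes made up the rest of the 11 described here of the 12 largest excesses. PYY, a peptide of the neuropeptide Y family, read 14.54, 14.39, 14.74 and 14.74 in telencephalon and 8.35, 8.26, 9.09 and 9.63 in midbrain, where M7 and M130 were the higher pair. Its difference was 5.77 ± 0.37 (SE), or 54.6-fold (adjusted p = 3.02e-11). GPR161, an orphan receptor of the primary cilium, differed by 4.58 ± 0.20 (SE), and rtn4rl2b, a member of the Nogo receptor family, by 4.30 ± 0.41 (SE). GEM, a small GTPase that restrains calcium channels, gave 12.37, 11.69, 11.33 and 11.02 in telencephalon and 7.45, 7.11, 7.24 and 6.70 in midbrain, a difference of 4.48 ± 0.31 (SE). The GTPase-activating gene arhgap4a was 13.5-fold higher. For each of these 11 genes the regions did not overlap and the other 3 populations had the same sign. The same held for all 24 genes at least 8-fold higher. The genes were picked for large differences in these Nadia arrays, so the lack of overlap is no separate support.

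**Figure D1:**
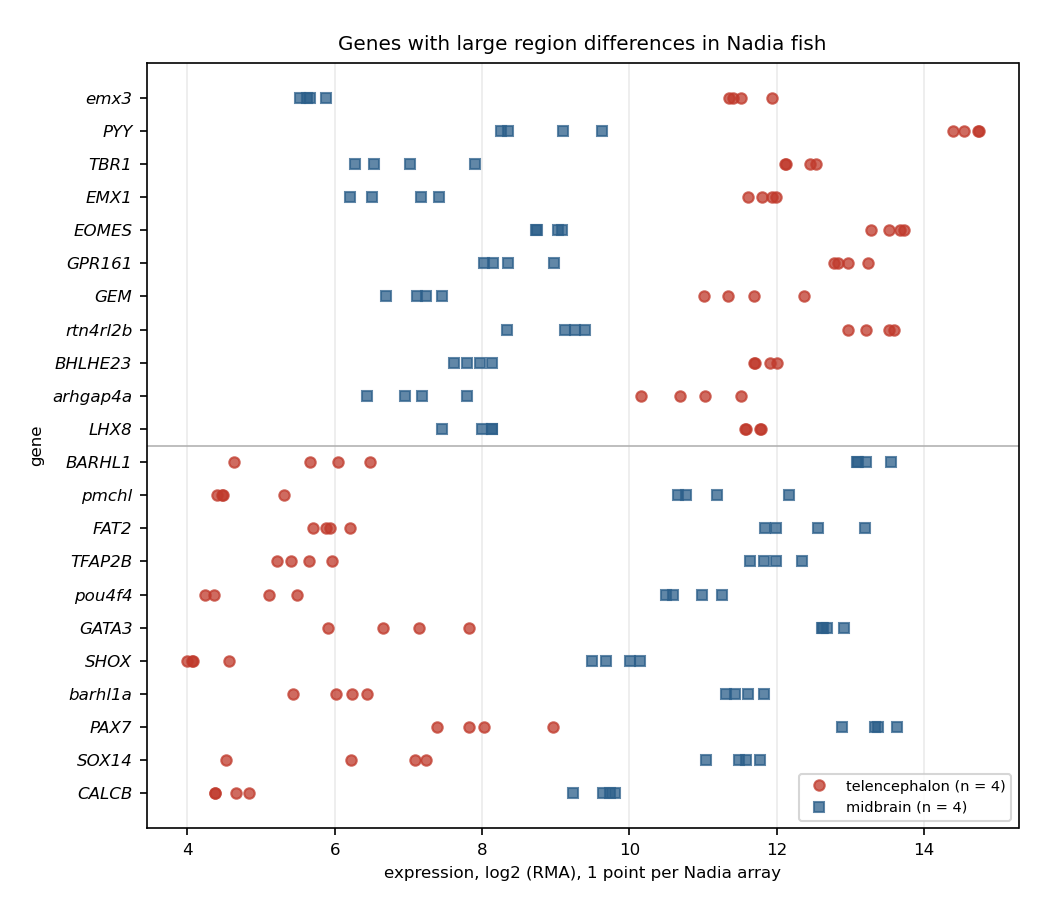
Log2 level (x axis) of 11 of the 12 genes with the largest excess in telencephalon (upper block) and 11 of the 12 with the largest deficit (lower block), 1 point for each Nadia array, with circles for telencephalon (n = 4) and squares for midbrain (n = 4). The regions do not overlap for any of the 22 genes, which were picked for large differences in these same arrays. BARHL1 has the widest gap, 7.53 between the means.

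The largest difference of either sign belonged to BARHL1, a homeobox factor of the dorsal midbrain and of cerebellar granule cells. It read 5.67, 6.47, 6.05 and 4.63 in telencephalon and 13.55, 13.09, 13.21 and 13.11 in midbrain. Its difference was -7.53 ± 0.36 (SE), 185-fold lower in telencephalon (adjusted p = 1.42e-13), and its paralog barhl1a was 45.7-fold lower. TFAP2B, an AP-2 transcription factor, read 5.96, 5.21, 5.65 and 5.40 against 11.64, 12.35, 11.996 and 11.83 and was 84.3-fold lower. PAX7, a paired-box factor of the tectum, read 7.39, 7.82, 8.03 and 8.96 in telencephalon and 12.89, 13.64, 13.37 and 13.33 in midbrain. T130 was the highest of its region for PAX7, whereas for BARHL1, GATA3 and SOX14 it was the lowest.

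Factors of the midbrain's GABAergic neurons were among the largest deficits. GATA3 read 7.15, 7.83, 6.66 and 5.91 in telencephalon and 12.61, 12.91, 12.63 and 12.69 in midbrain, -5.82 ± 0.30 (SE). SOX14 followed with 7.08, 7.24, 6.22 and 4.52 against 11.04, 11.78, 11.49 and 11.58, a wide spread in telencephalon and a narrow one in midbrain. GATA2 and TAL1, which act with GATA3 in these neurons, were 10.3-fold and 8.49-fold lower. The homeobox genes pou4f4 and SHOX were 65.6-fold and 50.5-fold lower. SHOX, with the smallest SE of the 22 genes plotted, read 4.08, 3.99, 4.56 and 4.06 in telencephalon, at the bottom of the scale, and 9.68, 10.01, 9.50 and 10.15 in midbrain. FAT2, a giant cadherin of cerebellar granule cells in mammals, read 6.21, 5.70, 5.93 and 5.89 against 13.20, 11.99, 12.56 and 11.83 and was 88.3-fold lower. The calcitonin-family peptide gene CALCB was 32.8-fold lower. The deposited table carries no detection call, so a fold for a gene at the bottom of the scale is the fold of the deposited values only.

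Read by gene list, the regional factors separated as their names would have it, with exceptions. Over all genes 8.42% were higher and 10.7% lower, the shares to set beside each list count below. Of 30 genes of the telencephalic list 19 were higher in telencephalon, 4 lower and 7 not called, with a median difference of 1.42, beside -0.0046 over all genes tested. The exceptions included LHX9 at -1.79 ± 0.21 (SE), EMX2 at -1.28 ± 0.17 (SE) and FOXP2 at -1.05 ± 0.14 (SE). EMX2 is known as a pallial factor like EMX1, and here it read 10.82, 10.83, 10.02 and 10.41 in telencephalon against 11.81, 11.87, 11.82 and 11.73 in midbrain, higher in midbrain in every pair. The subpallial homeobox genes DLX1, DLX5 and DLX6 were 2.86-fold, 4.44-fold and 3.58-fold higher. Of 28 tectal and midbrain genes 27 were lower in telencephalon and none higher, with a median difference of -3.36, and her5, a midbrain-hindbrain boundary repressor of the embryo, was the member not called (-0.24). The cerebellar list of 27 genes gave 1 higher, EOMES, and 10 lower, a median of -0.50. Among them cbln12, a cerebellin, read 12.64, 11.56, 12.42 and 11.72 in midbrain and 10.36, 9.57, 9.24 and 9.69 in telencephalon, and ZIC1, a zinc finger factor, was 3.09-fold lower.

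The transmitter lists moved in both directions, as did all genes (8.42% higher and 10.7% lower). Among 17 glutamatergic genes 7 were higher and 5 lower. NEUROD6, a helix-loop-helix factor of pallial neurons, was 2.02-fold higher and the receptor GRM5 1.49-fold higher, whereas the vesicular glutamate transporters SLC17A7 and SLC17A8 were 4.76-fold and 5.84-fold lower. SLC17A7 is a transporter typical of cortical neurons in mammals, and in Nadia fish it read 7.34, 9.07, 7.23 and 7.86 in telencephalon and 10.15, 10.46, 10.04 and 9.84 in midbrain. The 18 GABAergic genes gave 6 higher and 8 lower, the first being DLX factors and the neuropeptide NPY (1.01 ± 0.13 (SE)), and the second including calb2b, a calretinin, at -4.73 ± 0.25 (SE). The enzyme GAD2, which makes GABA and was chosen for mention after its value was seen, differed by -0.38.

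Receptor subunits showed the same mixture. Of 21 ionotropic glutamate receptor genes 3 were higher, among them GRIN2B (0.70 ± 0.10 (SE)) and GRIA1 (0.72 ± 0.13 (SE)), and 7 lower, led by GRIN2A, an NMDA receptor subunit. GRIN2A read 8.01, 8.49, 9.46 and 8.97 in telencephalon and 11.08, 11.35, 11.79 and 11.71 in midbrain, 6.74-fold lower (adjusted p = 9.56e-09). The 2 NMDA receptor subunits GRIN2A and GRIN2B thus had opposite signs. Of 16 GABA-A and glycine receptor genes 2 were higher, among them GABRA5 (1.15 ± 0.11 (SE)), and 7 lower. The lower ones included GLRA1, a glycine receptor of brainstem and spinal cord in mammals (-1.85 ± 0.26 (SE)), its relative glra4b (-1.51 ± 0.23 (SE)) and GABRR1, a subunit best known from the retina (-3.26 ± 0.47 (SE)).

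Serotonin, catecholamine and acetylcholine genes were lower in telencephalon more often than higher, as were all genes (10.7% lower and 8.42% higher). Of 16 serotonin genes 1 was higher and 5 lower: the serotonin transporter SLC6A4 read 6.15, 6.64, 7.23 and 5.47 in telencephalon and 10.08, 10.31, 10.71 and 10.67 in midbrain, 16.8-fold lower. TPH2, the enzyme that starts serotonin synthesis in neurons, was 10.4-fold lower. FEV, the factor of serotonin neurons, was 3.43-fold lower with overlapping regions, T98 (6.87) lying above M98 (6.68). The receptor htr7a went the other way, at 10.88, 10.79, 11.47 and 11.81 against 7.84, 8.27, 8.05 and 8.30, a difference of 3.13 ± 0.23 (SE). Of 28 dopamine and noradrenaline genes 5 were higher and 9 lower. The higher ones were receptors and a transporter, among them ADRA2C (2.0 ± 0.15 (SE)), adra2db (2.09 ± 0.19 (SE)), drd4-rs (1.63 ± 0.23 (SE)) and the noradrenaline transporter SLC6A2 (1.31 ± 0.25 (SE)). The lower ones included th2, a tyrosine hydroxylase gene of the fish hypothalamus (-2.81 ± 0.57 (SE)), the decarboxylase DDC (-2.20 ± 0.57 (SE)) and the dopamine receptors DRD1 (-1.10 ± 0.18 (SE)) and drd2l (-2.45 ± 0.29 (SE)). Among 16 cholinergic genes 2 were higher and 6 lower, with the vesicular transporter SLC18A3 6.1-fold lower and the degrading enzyme ACHE 1.53-fold lower.

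The 33 neuropeptide genes gave 10 higher and 10 lower. Beside PYY, the peptides pyya (2.09 ± 0.23 (SE)), ghrh (2.56 ± 0.29 (SE)), which releases growth hormone, and cart4 (2.08 ± 0.42 (SE)) were higher in telencephalon. Of the hypothalamic peptides, 4 were lower: pmchl (-6.53 ± 0.88 (SE)), npvf (-4.17 ± 0.56 (SE)), PMCH (-3.95 ± 0.61 (SE)) and POMC (-3.67 ± 0.53 (SE)), the precursor of melanocortins. The relaxin-family peptide rln3a, found in tegmental and periventricular cell groups, read 8.49, 7.95, 8.91 and 8.45 in telencephalon and 13.27, 12.70, 12.94 and 12.97 in midbrain and was 22.9-fold lower. The list of 24 diencephalic and hypothalamic genes, which shares several of these peptides, gave 7 higher and 8 lower, and 1 array moved with it. T130 had a mean list level of 7.98, whereas the other three telencephalon arrays lay between 9.17 and 9.30, and it was the lowest of its region for 15 of the 24 genes. The 4 midbrain arrays lay between 9.32 and 9.42.

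The nonapeptide genes, chosen after their values were seen, differed between fish in the same way. Oxytocin (oxt) read 13.38, 13.70, 14.02 and 8.40 in telencephalon, and 11.64, 8.88, 10.13 and 13.43 in midbrain. Vasopressin (avp) read 13.21, 13.45, 14.10 and 9.77 in telencephalon and 11.10, 10.16, 10.64 and 12.48 in midbrain. In 3 of the 4 same-numbered pairs both genes were higher in telencephalon, and in T130 and M130 both were higher in midbrain. The differences of 1.36 ± 1.52 (SE) for oxt and 1.54 ± 0.97 (SE) for avp were not past the threshold (adjusted p = 0.629 and 0.321, limma). In the other 3 populations the mean differences were -0.38 and -0.25, and the departure of Nadia was not called for either gene. Whether the front of the hypothalamus or the preoptic area was included to a different extent in these pieces was not tested.

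Among the glial lists most myelin genes were lower in telencephalon, whereas most radial glia and microglia genes were not called. Of 14 oligodendrocyte and myelin genes 10 were lower and none higher, with a median of -1.61. UGT8, which makes the myelin lipid galactocerebroside, read 8.01, 8.04, 7.14 and 7.59 in telencephalon and 10.75, 10.39, 10.38 and 10.89 in midbrain and was 7.48-fold lower, and erbb3b and plp1b were 6.94-fold and 5.31-fold lower. Of 13 radial glia and astroglia genes 1 was higher, SOX2 (0.79 ± 0.18 (SE)), and 3 were lower, beside 8.42% and 10.7% of all genes. The lower ones were nes (-1.82 ± 0.22 (SE)), CYP19A1 (-1.33 ± 0.29 (SE)), an aromatase gene, and AQP1 (-1.41 ± 0.34 (SE)). The symbol does not say which of the fish aromatase genes CYP19A1 is, and its telencephalon arrays read only 5.56 to 5.96. Of 22 microglia and leukocyte genes 4 were lower, among them tnfb (-1.29 ± 0.21 (SE)), and none higher.

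Of 30 vessel, meninges and fibroblast genes 8 were lower and none higher, beside 10.7% and 8.42% of all genes. ALDH1A2, which makes retinoic acid and marks meningeal cells, read 6.84, 7.60, 7.18 and 6.30 against 9.87, 10.19, 10.07 and 10.22 and was 8.62-fold lower, and DCN, a matrix proteoglycan, was 4.54-fold lower. Red blood cell genes were lower for 7 of 11, none being higher, with RHAG, a blood group glycoprotein, 2.51-fold lower. Of those 7, TAL1 is also a midbrain neuron factor and stands in the midbrain list too.

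Activity-related genes included 5 of 28 higher and 3 lower, beside 8.42% higher and 10.7% lower over all genes. The higher ones included egr2a (1.64 ± 0.24 (SE)), EGR3 (1.19 ± 0.18 (SE)), FOSL2 (1.46 ± 0.23 (SE)) and DUSP5 (0.77 ± 0.19 (SE)), and the lower ones were KLF4 (-1.70 ± 0.24 (SE)), JUN (-0.93 ± 0.25 (SE)) and fosaa (-1.15 ± 0.33 (SE)). The list had no common direction (median 0.01), although both kinds of gene are induced by activity in neurons. In the list of 29 stress axis genes 5 were lower and none higher, sgk1, a kinase induced by glucocorticoids, being at -1.09 ± 0.12 (SE). The clock list gave 2 higher and 3 lower of 35, the cell cycle list 2 higher and 0 lower of 20, with GMNN, an inhibitor of replication licensing, at 1.21 ± 0.22 (SE), and the MHC and interferon list 1 higher and 2 lower of 30. For the clock, cell cycle, and MHC and interferon lists the shares were near or below those over all genes. The share higher in the activity-related list and the share lower in the stress axis list were above them. Of 54 oxidative phosphorylation subunits only COX4I2 was called (-0.41 ± 0.14 (SE), adjusted p = 0.0408), and the call ended with either scaling alternative and with the fish number as a fixed block (adjusted p = 0.0539).

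Axon guidance and potassium channel genes were called in both directions, 26 of 48 and 27 of 60, beside 19.1% of all genes (8.42% higher and 10.7% lower). Of 48 guidance genes 10 were higher and 16 lower. The semaphorins divided: sema3aa, a repellent, read 12.12, 12.23, 11.94 and 12.26 in telencephalon and 10.41, 10.59, 10.21 and 10.21 in midbrain, 1.78 ± 0.15 (SE), whereas SEMA3A read 10.12, 10.45, 10.76 and 10.17 and 12.17, 12.36, 12.01 and 12.39, -1.86 ± 0.15 (SE), and SEMA3B was 4.64-fold lower. The ephrins EFNB1 and EFNB2 were 1.82-fold and 2.29-fold higher, and the netrin NTN1 and the roundabout receptor robo4 were 5.12-fold and 9.39-fold lower. Of 60 potassium channel genes 10 were higher, led by KCNG3, a modifying subunit (2.28 ± 0.21 (SE)), and kcnc4 (1.38 ± 0.15 (SE)), and 17 lower. The lower ones included another modifying subunit, KCNV1 (-2.57 ± 0.22 (SE)), the Shaw-type kcnc3a (-2.19 ± 0.21 (SE)) and KCNJ10, an inward rectifier of glia (-1.64 ± 0.17 (SE)).

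**Figure D2:**
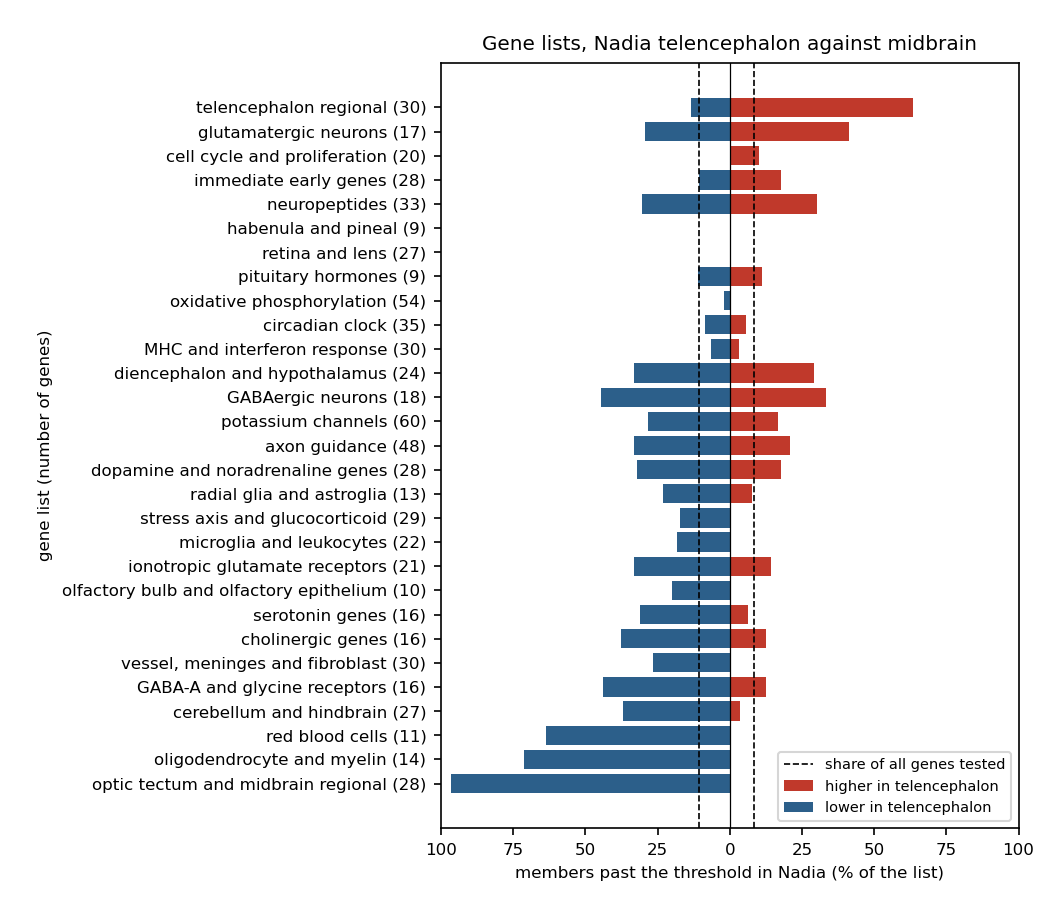
Share of each gene list past the threshold in Nadia fish (x axis, percent of the list's genes), to the right for genes higher and to the left for genes lower in telencephalon, with the number of genes in brackets. The dashed lines mark the shares over all genes tested, 8.42% higher and 10.7% lower, and the tectal and midbrain list (27 of 28 lower) and the telencephalic list (19 of 30 higher) lie furthest from the line on their side, followed on the lower side by the oligodendrocyte and myelin list (10 of 14 lower).

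Eye and habenula genes, of tissue next to the dissected pieces, varied between Nadia arrays without a regional call. None of 27 retina and lens genes and none of 9 habenula and pineal genes was called. The mean level of the eye list was 7.83 in M98 and between 6.11 and 6.53 in the other three midbrain arrays, and it was 7.35 in T106 and between 6.21 and 6.84 in the other three. M98 was the highest of its region for 19 of the 27 genes and T106 for 14. The same arrays were highest in mean level of the habenula and pineal list. M98 was at 9.08 and the other midbrain arrays between 8.03 and 8.23. T106 was at 8.93 and the other telencephalon arrays between 7.71 and 8.20. Within that list M98 was the highest of its region for 6 of 9 genes and T106 for 4. Without these 2 arrays 2443 genes were called, an alternative added after the values were seen. Of 9 pituitary genes smtlb, a somatolactin, was higher (2.77 ± 0.54 (SE)) and POMC lower. Of 10 olfactory genes 2 were lower, CALB2 (-2.10 ± 0.18 (SE)), a calretinin of many midbrain neurons as well, and EBF2 (-1.43 ± 0.29 (SE)), and none was higher. The regions overlapped for EBF2, with T98 (8.23) above M98 (8.02).

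**Figure D3:**
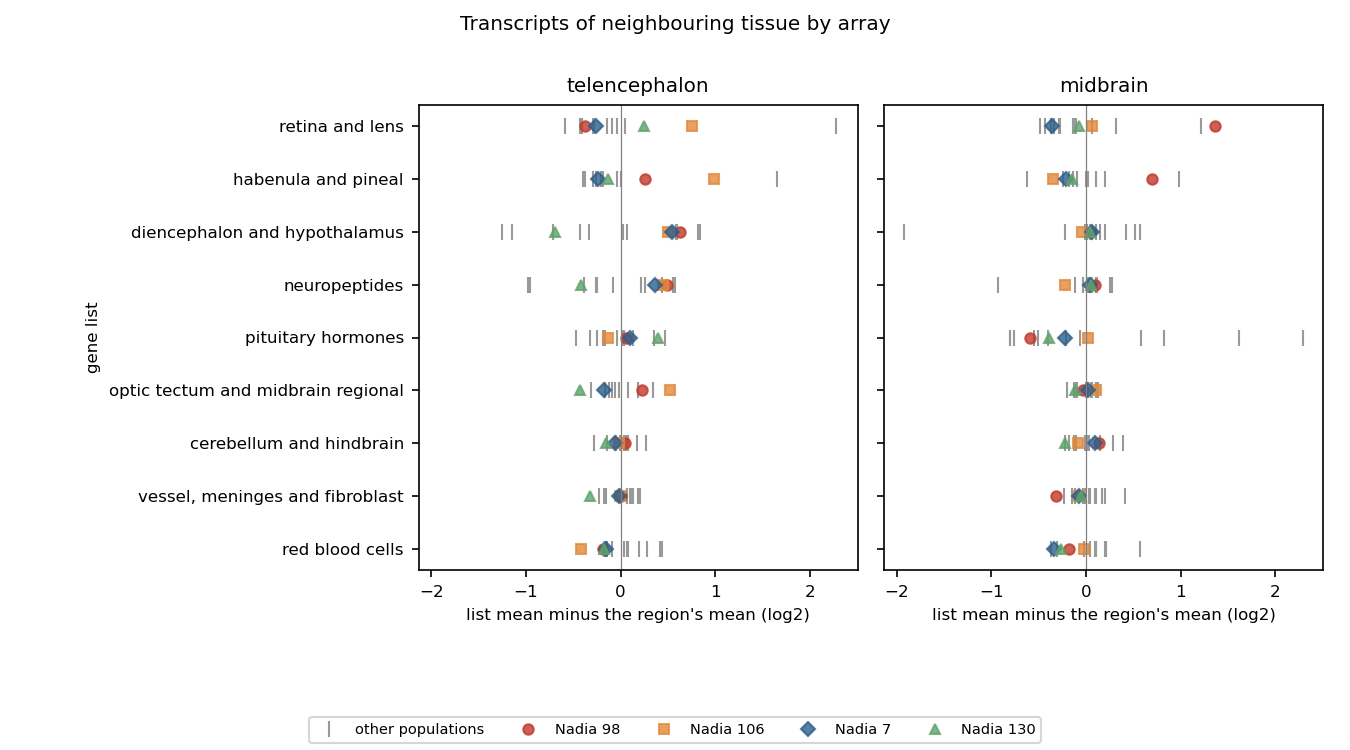
Mean log2 level of 9 gene lists in each array minus the mean over all arrays of that region (x axis), with telencephalon arrays on the left and midbrain arrays on the right. Coloured symbols are the 4 Nadia fish numbers and grey ticks the arrays of the other 3 populations. M98 lies 1.36 and T106 lies 0.76 above their regions' means for the eye list, and T130 lies 0.69 below for the diencephalic list.

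The region difference in Nadia fish was close to that in the other 3 populations. Across the 15648 genes, which are not independent replicates, the Nadia difference and the mean difference of the other 3 correlated at r = 0.933, and at 0.883 with Pargana North, 0.871 with Scientific Hatchery and 0.889 with Transgenic Mosaic 1. The same test called 3331 genes (21.3%) for Pargana North, 2422 (15.5%) for Scientific Hatchery and 3165 (20.2%) for Transgenic Mosaic 1. The mean of the other 3 populations, which rests on 23 arrays, gave 5877 (37.6%). Of the 2992 Nadia calls 2850 were called in that mean with the same sign, 95.3% of the Nadia calls and 48.5% of the others' calls. All of the other 3 populations had the Nadia sign for 2918 of the calls, and 1564 were called with that sign in each of the 4 populations. All 24 genes at least 8-fold higher and all 88 at least 8-fold lower had the Nadia sign in each of the other 3, and 24 and 86 were called in each.

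Most of the genes called in Nadia fish alone had no small p for a departure. There were 318 genes called in Nadia and in none of the other 3 populations tested separately, and 42 of these had an unadjusted p under 0.05 for the departure from the others' mean. Conversely, 88 genes were called in each of the other 3 and not in Nadia, and 15 of them had an unadjusted departure p under 0.05. Both shares are above the 1.75% over all genes, and as these genes were chosen by the same Nadia difference nothing is read from that. Among the 1228 genes of at least 2-fold in Nadia the median ratio of the Nadia difference to the others' mean was 1.05 (quartiles 0.946 and 1.21). Among the 1287 genes of at least 2-fold in the others' mean it was 0.977, so the choice of genes moved the ratio across 1.

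No gene passed the threshold when the departure itself was tested. The difference between the Nadia difference and the mean of the other 3 gave 0 calls among 15648 genes (0%, limma, smallest adjusted p = 0.0849, for si:ch211-161h7.5), and 274 genes (1.75%) at an unadjusted p under 0.05. With no departure in any gene a share near 0.05 would be expected, so the main fit gave fewer small p-values than that. The cause was not tested, and the few calls do not measure how alike the populations are. Against Pargana North and against Scientific Hatchery alone there were 0 calls (0%), and against Transgenic Mosaic 1 there was 1 call (0.00639%). With the fish number as a fixed block the counts were 1 against the mean, 3 against Pargana North and 2 against Transgenic Mosaic 1, and with it as a random block 2 against the mean and 7 against Transgenic Mosaic 1. The 1 call against the mean with the fixed block, and 1 of the 2 with the random block, was si:ch211-161h7.5, which was low in both Nadia regions. The precision limits what could be seen. In the main fit, which had no term for the fish number, the median SE of a departure was 0.233. That is a median 95% half-width of 0.482 for 1 gene without adjustment, and the median absolute departure was 0.122. Where same-numbered arrays correlate positively, a fit without that term tends to make this SE too large. The adjusted threshold over all genes asked for more: departures of 1.98 (ENSDARG00000029066, adjusted p = 0.146) and 2.46 (c3b.2, adjusted p = 0.99996) did not pass (limma). Of the 274 genes 129 had opposite signs in Nadia and in the others' mean, 90 had the same sign and a larger size in Nadia, and 55 the same sign and a smaller size.

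**Figure D4:**
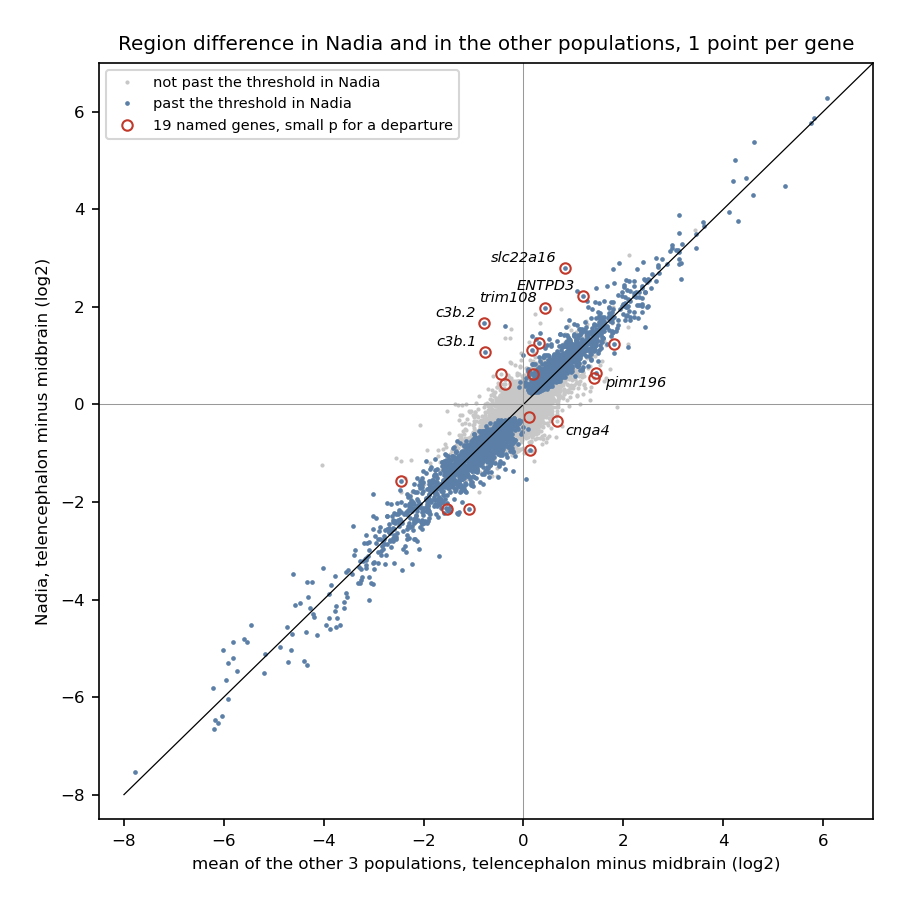
Telencephalon minus midbrain difference (log2) in Nadia fish (y axis) against the mean difference of the other 3 populations (x axis), 1 point for each of 15648 genes, with the line of equality. Genes past the threshold in Nadia are blue, and open circles mark 19 of the 20 genes with the smallest p for a departure, none of which passed the adjusted threshold.

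The 1 call against Transgenic Mosaic 1 was si:ch211-161h7.5, an uncharacterised gene named here after its values were seen. It was low in both Nadia regions, with means of 4.51 ± 0.10 in telencephalon and 4.57 ± 0.39 in midbrain (SD, n = 4 each). In Transgenic Mosaic 1 it was at 9.89 ± 0.40 in telencephalon and 4.76 ± 0.09 in midbrain (SD, n = 4 each). The departure of Nadia from Transgenic Mosaic 1 was -5.18 ± 0.40 (SE, adjusted p = 4.69e-08). The high value belonged to the telencephalon of Transgenic Mosaic 1, since Pargana North telencephalon had a mean of 4.52 and Scientific Hatchery telencephalon one of 5.34. The call was lost when the dimmest 25% of genes were left out, because the gene was then not tested.

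The 20 genes with the smallest p for a departure from the others' mean, among those with a symbol that is no clone name and that no other row shares, did not pass, and 19 of them are given as values. In slc22a16, a carnitine transporter, the telencephalon arrays read 6.84, 8.07, 8.52 and 8.51 and the midbrain arrays 4.98, 5.20, 4.97 and 5.61, a region difference of 2.79 ± 0.37 (SE). It was 0.09 for Pargana North, 0.18 for Transgenic Mosaic 1 and 2.24 for Scientific Hatchery, so that Nadia and Scientific Hatchery lay close together and away from the other two, and the departure of Nadia was 1.96 (95% interval 1.06 to 2.85, adjusted p = 0.75873). With Scientific Hatchery left out of the mean the departure was 2.66 (adjusted p = 0.0412). Against single populations slc22a16 was called with the fish number as a fixed block (2.70 from Pargana North, adjusted p = 0.0478), as a random block (2.62 from Transgenic Mosaic 1, adjusted p = 0.0239), and from Transgenic Mosaic 1 with array weights (adjusted p = 0.0129) and without 1 of that population's telencephalon arrays (adjusted p = 0.046). In the main fit and all other alternatives run, no departure of slc22a16 was called. The Nadia difference of trim108, a TRIM-family gene of fish, was 1.98 ± 0.32 (SE) against 0.38 to 0.54 in the other populations. Its telencephalon arrays spread widely, at 7.37, 6.56, 8.20 and 8.72, and T106 was the lowest, close to M106 at 6.43. The departure was 1.54 (95% interval 0.78 to 2.31, adjusted p = 0.99996). Over the fits that left out 1 array or 1 fish it lay between 0.92 and 2.14. The highest was that without T106 and M106, the only one of these fits in which it was called (limma, adjusted p = 0.0165).

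The complement genes c3b.1 and c3b.2 had opposite signs in Nadia and in the others. Both are copies of complement component C3, the protein on which the complement pathways converge, and whether their probes share sequence was not tested. In Nadia c3b.1 read 8.50, 9.88, 9.67 and 9.29 in telencephalon and 7.87, 8.43, 8.29 and 8.44 in midbrain, 1.08 ± 0.37 (SE) apart (adjusted p = 0.0434). The other populations had -1.17, -0.69 and -0.48, and their mean of -0.78 was itself called (adjusted p = 0.00733), which made c3b.1 the 1 gene called with opposite signs in Nadia and in the others' mean. All 4 Nadia telencephalon arrays, the lowest at 8.50, were above every telencephalon array of the other populations, the highest of which was 7.37. The Nadia midbrain arrays, the lowest at 7.87, also lay above 7.37. That is a comparison of levels, not of region differences. As c3b.1 was named by a small departure p from these same arrays, it is no separate support. The departure was 1.85 (95% interval 0.96 to 2.75, adjusted p = 0.99996), and with the fish number as a fixed block the departure from Pargana North alone, 2.24, was called (adjusted p = 0.0478). For c3b.2 the Nadia arrays read 7.46, 8.80, 8.51 and 7.62 in telencephalon and 6.88, 5.77, 6.01 and 7.03 in midbrain, 1.67 ± 0.59 (SE) (adjusted p = 0.0491), against -1.67 in Pargana North and -0.40 and -0.30 in the others. The Nadia calls of both genes were borderline: c3b.1 lost its call in 11 of the fits that left out 1 array or 1 fish and c3b.2 in 25, and c3b.2 also with the fish number as a fixed block (adjusted p = 0.0548).

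Among the remaining named genes, 6 had a Nadia difference in telencephalon's favour that was larger than in each other population. ENTPD3, an enzyme that breaks down extracellular nucleotides, read 6.21, 6.25, 6.64 and 6.92 in telencephalon and 4.44, 4.21, 4.15 and 4.37 in midbrain, 2.21 ± 0.27 (SE) against 1.15 to 1.24 in the others. The differences of pof1b, an actin-binding gene, and fam20cl, a kinase-like gene, were 1.26 ± 0.22 (SE) and 1.12 ± 0.22 (SE) in Nadia and at most 0.65 and 0.24 elsewhere. For ZC4H2, a zinc finger gene needed in neurons, the 4 Nadia telencephalon arrays lay within 13.43 and 13.48, and the difference of 0.63 ± 0.10 (SE) stood beside 0.28, 0.04 and 0.26. LAYN, a hyaluronan receptor, differed by 0.63 ± 0.24 (SE) in Nadia, not past the threshold there, and by -0.10, -0.20 and -1.03 in the others. With the fish number as a fixed or random block the Nadia difference of LAYN was called (adjusted p = 0.0096 and 0.0213), as was its departure of 1.66 from Transgenic Mosaic 1 (adjusted p = 0.0277 and 0.0239). The phosphatase gene PHOSPHO1 was at 0.42 ± 0.22 (SE) in Nadia, not past the threshold, and at -0.40, -0.32 and -0.36 in the others. Its Nadia arrays were low on the scale in both regions (4.95 to 5.96).

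Of the other genes, HAPLN4, ppp4r2a, pimr196 and svopb had a Nadia difference nearer 0 than in each other population. Again no departure from the others' mean was called for these or for the genes that follow. HAPLN4, a link protein of the matrix around neurons, was at -1.57 ± 0.23 (SE) against -1.93, -2.37 and -3.07, and its departure from Transgenic Mosaic 1 was called with array weights (adjusted p = 0.0168) and without M98 (adjusted p = 0.0444). The difference of ppp4r2a, a phosphatase subunit, was 1.24 ± 0.16 (SE) against 1.67 to 1.93, and pimr196, a Pim-related kinase gene, was at 0.65 ± 0.21 (SE) against 1.02 to 1.92. The transporter-like svopb was at 0.55 ± 0.23 (SE) against 1.08 to 1.67, and its Nadia arrays were low on the scale (4.76 to 5.89). For cnga4, a channel subunit of olfactory neurons, the Nadia difference was -0.34 ± 0.24 (SE), whereas the others had 0.59, 1.19 and 0.22. Its Nadia arrays overlapped and lay at the bottom of the scale (4.37 to 5.27). NDNF, a secreted neuronal factor, and PABPC1L, a poly(A)-binding gene, had larger deficits in Nadia, -2.15 ± 0.15 (SE) and -2.14 ± 0.27 (SE), than in any other population. The PABPC1L telencephalon arrays of Nadia lay at the bottom of the scale (3.98 to 4.94). The departure of NDNF from Pargana North was called without 1 Pargana North telencephalon array (limma, adjusted p = 0.0485). DNAH2, a dynein of cilia, was lower in Nadia telencephalon (-0.93 ± 0.26 (SE), adjusted p = 0.0132) and at 0.02, 0.01 and 0.38 in the others. The helicase gene ddx61 (-0.25 ± 0.09 (SE)) was not past the threshold in Nadia and had the opposite sign in each other population.

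**Figure D5:**
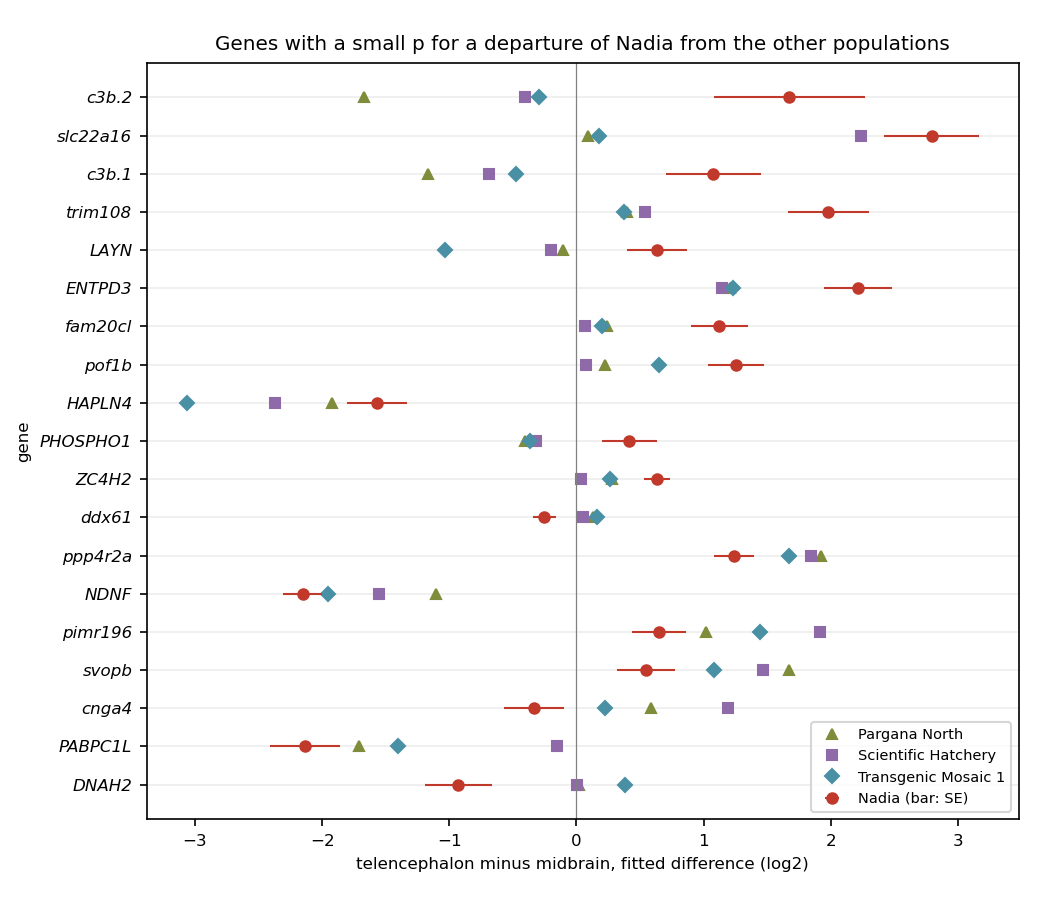
Fitted telencephalon minus midbrain difference (x axis, log2) of 19 of the 20 genes with the smallest p for a departure, with circles and SE bars for Nadia and other symbols for Pargana North, Scientific Hatchery and Transgenic Mosaic 1. For slc22a16 the Scientific Hatchery point (2.24) lies beside Nadia (2.79), and for c3b.1 and c3b.2 Nadia is the only population above 0.

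Of the Nadia calls, 9 had a sign opposite to the others' mean. Beside c3b.1, c3b.2 and DNAH2 these were PALMD (-0.51 against 0.10), tdp2a (1.02 against -0.02), TSPAN31 (0.35 against -0.08) and 3 genes without a symbol, all chosen for mention by that sign alone. The furthest apart of those without a symbol, ENSDARG00000029066, was at 1.61 ± 0.32 (SE) in Nadia and -0.37 in the others' mean, a departure of 1.98 (adjusted p = 0.146). It was called with the fish number as a random block (adjusted p = 0.0346).

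Within the gene lists no departure was called. Of 28 midbrain genes 2 had an unadjusted departure p under 0.05, where 1.75% of all genes did: PAX7, at -5.26 ± 0.26 (SE) in Nadia and -4.39 in the others' mean, and IRX5, at -4.86 against -5.83. None of the 30 telencephalic genes did. In the neuropeptide list rln3a, at -4.52 ± 0.29 (SE) against -5.46, and nmbb, a bombesin-like peptide, at -0.13 against -1.05, were the 2 of 33. The habenular gene gng8 was at -1.24 against -4.03, and its Nadia arrays read 7.31, 11.97, 6.24 and 5.40 in telencephalon and 10.37, 5.10, 10.14 and 10.27 in midbrain. T106 was thus above the other three telencephalon arrays, and M106 below the other three midbrain arrays. In the myelin and vascular lists erbb3b (-2.79 ± 0.22 (SE) against -2.14) and ALDH1A2 (-3.11 ± 0.46 (SE) against -1.69) were further from 0 in Nadia, and COL1A2, a fibrillar collagen, was nearer (-0.31 against -1.29).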

How the data were processed

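The files hold 1 table of log2 expression values, which the authors deposited after RMA (background correction, quantile normalization and summary of a gene's probes), named with the Zv9 build in the submitters' processing notes. It has 15649 rows, of which 15648 are Ensembl genes, and the row that names no gene (0.00639%) was left out. Array medians lay between 9.57 and 9.74. Signal over background is not given, and the number of arrays limits the precision. Symbols came from a table of gene IDs, which named 13251 genes; 2397 kept their ID. Many symbols are written in capitals as in human.

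One limma fit (version 3.58.1, R 4.3.3; random block with statmod 1.5.0) over all 31 arrays gave each of the 8 groups a mean, with a sex term in each region and a pooled spread (21 residual degrees of freedom). Contrasts were the Nadia region difference and its departure from the mean of the other 3 populations and from each, with Benjamini-Hochberg adjustment over all genes at 0.05. The self-test ran on simulated data.

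Named were, among genes with a symbol that is no clone or locus name and that no other row shares, the 12 largest called differences in each direction with 1 sign in all 4 same-numbered pairs, the 20 smallest departure p-values, since no departure passed, and up to 4 members per direction of each of 29 lists. Exceptions are marked in the text, and a few named genes are not reported here. The members and the lists were chosen with earlier results of these data known. The lists had 977 entries and matched 675 distinct genes, of which 82 were higher and 171 lower in telencephalon.

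The labels give the arrays of both regions the same numbers without saying that a number marks a fish. Deviations of same-numbered arrays from their group means correlated over 0.1 in all 15 pairs (0.121 to 0.542, Nadia 0.121 to 0.461). The numbers were therefore used to pair the arrays in sign counts and in the block alternatives, and "fish" is used for a number. The main fit had no term for the number, so its SEs, p-values and counts treat same-numbered arrays as independent. Where such arrays correlate positively, this tends to make the SE of a region difference too large. With the number as a block more genes were called in Nadia, 3488 (fixed) and 3759 (random) against 2992. In Nadia, however, T98 correlated more with M106 (0.221) and T106 with M98 (0.267) than with the array of its own number (0.131 and 0.121), which leaves the pairing of these 4 arrays in doubt. Whether arrays of a group came from separate fish is stated only as individual samples. Alternatives were filters, moderation, weights, blocks, scaling, thresholds and arrays left out.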

Additional observations from a re-analysis of the deposited data

Results flagged for a closer look

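A Nadia array lay far from the other three of its group in 10 of 146 groups of 4 examined (the gap to the nearest array, divided by the group's range, was above Dixon's 95% critical value). Chance flags about 1 in 20 groups. T130 was low in the mean level of 4 lists: diencephalon and hypothalamus (7.98, the others 9.17 to 9.30, ratio 0.902), vessel, meninges and fibroblast (9.01 against 9.32 to 9.34, 0.942), GABAergic neurons (10.91 against 11.11 to 11.14, 0.870) and neuropeptides (9.35 against 10.12 to 10.25, 0.856). T106 was low in red blood cell genes (8.05 against 8.29 to 8.32, 0.864) and high in pmchl (5.31 against 4.41 to 4.49, 0.907). T7 was high in SHOX (4.56 against 3.99 to 4.08, 0.843) and low in NDNF (7.96 against 8.37 to 8.44, 0.859). M98 was low in the vessel list (9.58 against 9.82 to 9.84, 0.927), and M106 in neuropeptides (10.10 against 10.37 to 10.42, 0.844).

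The region difference of si:ch211-161h7.5 differed between Nadia and Transgenic Mosaic 1 by -5.18 (limma, adjusted p = 4.69e-08), with a high level in the Transgenic Mosaic 1 telencephalon arrays.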

How the results depend on the processing

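The count of genes that differ between the regions in Nadia fish (2992) was 1929 at an adjusted p under 0.01 and 1228 with at least 2-fold required, both smaller by construction. It lay between 2103 and 3150 when arrays or fish were left out, and was 3488 with a fixed and 3759 with a random replicate block (consensus correlation 0.227), 2436 in the Nadia arrays alone and 3279 after a shift to the same median. List members called numbered 72 to 87 higher and 146 to 179 lower over the fits that left out arrays. No difference reversed its sign among the results and alternatives run. The departure from the mean of the other 3 (0 calls) gave 1 with no sex term, 1 with the fixed and 2 with the random replicate block, 1 without Pargana North and 2 without Scientific Hatchery in the mean, and 0 to 1 when arrays were left out. Against Pargana North (0 calls) there were 3 with the fixed block and 0 to 1 when arrays were left out. Against Transgenic Mosaic 1 (1 call) there were 0 without the dimmest genes (fewer genes tested), 6 with array weights, 2 with the fixed and 7 with the random block, and 1 to 4 when arrays were left out. Where construction does not show the cause, the cause was not tested. The block changed the Nadia calls of c3b.2, COX4I2 and LAYN, as well as ddx61 with the random block; with it fitted to the Nadia arrays alone BHLHE40, gabrz, GRM5, isg20, apoeb and FEV were among those that also fell short.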
